A study of Mus musculus with 24 samples.

Results

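Cytosolic ribosomal protein genes encode the proteins of the ribosomes that translate nuclear messenger RNA. The genes described here are those whose symbol is Rpl or Rps followed by a digit, or is Rplp0, Rplp1, Rplp2 or Rpsa, with pseudogene symbols and the Rps6k kinases left out. Each gene is represented by the probe set, a group of array probes for 1 transcript, that the annotation maps to that symbol alone and that has the highest mean over 24 arrays. The rule gave 50 genes of 18193 in all. They comprise 21 proteins of the small subunit, 20 of the large subunit and 2 of the stalk, the flexible arm of the large subunit that recruits elongation factors. A further 6 are paralogs of ribosomal protein genes (Rpl3l, Rpl7l1, Rpl22l1, Rpl39l, Rps4l and Rps27l). The last, Rps19bp1, meets the symbol rule but encodes a protein that binds Rps19 and is not part of the ribosome.

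The study measured total RNA from the forebrain of TgCRND8 mice, which carry a human amyloid precursor protein transgene labelled APPSwe/Ind, and of wild-type littermates at 70, 80 and 150 days of age. In TgCRND8 mice the hamster prion protein gene promoter drives human APP with the Swedish and Indiana mutations of familial Alzheimer's disease. Each of the 6 groups had 4 mice and each mouse had 1 Affymetrix array, with values on the log2 scale. The labels number the mice 1 to 4 within each group and do not say what a shared number stands for. The array medians lay between 4.28 and 4.38. The forebrain markers Emx1 (6.64), Neurod6 (7.23) and Ppp1r1b (8.60) were well above the arrays' lower quartiles, which lay between 3.15 and 3.32. Genes of neighbouring tissues were high on some arrays. The cerebellar genes Gabra6 and Pcp2 had medians of 2.93 and 4.02 and reached 4.58 and 6.27 on control array number 4 of day 150. The pituitary genes Prl and Gh had medians of 3.35 and 4.03 and reached 9.98 and 8.34 on TgCRND8 array number 4 of day 150. Pomc had a median of 5.74 and reached 8.70 on TgCRND8 array number 1 of day 70. The next highest Prl and Gh values, 5.78 and 6.57, were on that same array, and TgCRND8 array number 2 of day 80 followed with 5.505 and 5.72. Prl and Gh lay more than 1 log2 above their medians on 4 arrays each, and Pomc on 3. The 3 highest arrays of each of these pituitary genes were all from TgCRND8 mice. The part of other tissue in the results was not tested, and values without these arrays stand beside the genotype differences.

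A ribosome needs 1 copy of most of these proteins, and their messenger RNAs are among the most abundant of any cell. Many of these messengers begin with a cytosine followed by an unbroken run of pyrimidines, the 5′ terminal oligopyrimidine motif, through which mTOR signalling and the binding protein Larp1 control their translation together. In neurons ribosomes lie in the cell body and in dendrites, where local translation supports synaptic plasticity. The arrays measure messenger level and not translation, and in bulk tissue a smaller number of cells and less messenger per cell cannot be told apart.

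The genes gave some of the brightest signals of the arrays. Their median signal was 10.98, against 5.38 over all 18193 genes, and 35 of the 50 were among the brightest 5% of genes. Rps29, a zinc-binding protein of the small subunit head, gave 12.86. Rpl41, the smallest protein of the large subunit, gave 12.45, Rpl37a 12.39, Rps14 12.35 and Rps3a1 12.33. Signals of different probe sets are not comparable as RNA levels, because each probe binds with its own strength, so this order describes the probe sets. In all, 34 genes had a mean signal above 10, and 3 lay below the highest of the arrays' lower quartiles: Rps16 at 2.71, Rpl3l at 2.96 and Rpl39l at 3.07. Rpl3l is the paralog of Rpl3 known from skeletal and heart muscle, and Rpl39l the paralog of Rpl39 known from testis.

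The low signal of Rps16 belongs to its only probe set mapped to no other symbol. A probe set that it shares with another symbol gave 12.13. Ribosomal protein genes have many processed pseudogenes of near-identical sequence, and of 216 probe sets that name a ribosomal protein gene, 110 name a further symbol as well. Among the 50 genes 15 also had shared probe sets, and for 11 of these the shared probe set was the brighter one. Rpl12 had 4.72 on its own probe set and 11.12 on a shared one, Rpl14 had 4.38 and 11.05, Rps25 had 5.13 and 11.28, and Rps6, the target of S6 kinase, had 5.55 and 12.40. A further 31 ribosomal protein genes, among them Rpl3, Rpl5, Rpl10, Rplp1, Rps12 and Rps23, had only shared probe sets and are not among the 50.

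What the genes share beyond their symbol was looked for at their transcription starts. Of the 50 genes 44 had an entry in the RefSeq promoter table (GRCm38.p6), with 52 promoters of 300 bases, 250 before and 50 from the annotated start. A run of at least 5 pyrimidines beginning with C stood exactly at the annotated start in 8 of 52 promoters (15.4%), against 2.51% of all 32851 promoters and 0 of 75 promoters of mitochondrial ribosomal protein genes. With the start allowed to move by up to 5 bases either way, 40.4% of the promoters held such a run, against 18.3% of all promoters and 22.7% of those of the mitochondrial ribosome. The sequences below run 5′ to 3′ over 30 bases, 10 before the annotated start and 20 from it. Capitals mark the pyrimidine run at the start in 7 of the 8 genes that have it there.
Rps6: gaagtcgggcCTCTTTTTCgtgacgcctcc
Rps10: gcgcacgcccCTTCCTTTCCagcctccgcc
Rps18: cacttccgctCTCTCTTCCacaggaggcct
Rps27: cgctttcgctCCTTTCCggcggtgacgacc
Rpl35: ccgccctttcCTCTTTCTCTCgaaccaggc
Rpl38: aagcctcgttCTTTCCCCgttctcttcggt
Rplp2: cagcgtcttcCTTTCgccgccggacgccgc
They lie at chr4:86857348-86857377 on the minus strand (Rps6), chr17:27635225-27635254 minus (Rps10), chr17:33955646-33955675 minus (Rps18), chr3:90213629-90213658 minus (Rps27), chr2:39005112-39005141 minus (Rpl35), chr11:114668570-114668599 plus (Rpl38) and chr7:141447641-141447670 plus (Rplp2). Each window covers the end of the promoter and the first bases of the first exon, in the 5′ untranslated region. The runs at the start were 5 bases long in Rplp2 and 11 in Rpl35.

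For comparison, the windows of the 3 genes to which the expression results return, Rps28, Rpl4 and Rplp0, have no such run at the annotated start and are shown without capitals.
Rps28: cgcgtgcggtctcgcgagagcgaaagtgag
Rpl4: tttcctgtgggagcagccgggtagagagga
Rplp0: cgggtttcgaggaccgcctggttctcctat
They lie at chr17:33824543-33824572 minus (Rps28), chr9:64173377-64173406 plus (Rpl4) and chr5:115559457-115559486 plus (Rplp0). An annotated start can differ from the start used in forebrain, so the absence of a run in these letters says nothing of the messenger's real first base. The heptamer CCGGAAG, a core bound by ETS family factors and searched on both strands, occurred in 40.4% of the promoters of the ribosomal protein genes, in 34.7% of those of the mitochondrial ribosome and in 8.86% of all promoters. TATAAA on the sense strand was found in 9.62% against 8.32% of all, and the E-box CACGTG, the Myc-type site searched on both strands, in 9.62% against 7.15%. These are matches of letters and no test was made of them.

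The genotype comparison asked whether the messengers of the ribosome differed between TgCRND8 and control forebrain at each age. No ribosomal protein gene passed at any age. By limma with Benjamini-Hochberg adjustment over 18193 genes, 0 of 50 had an adjusted p under 0.05 at day 70, where 0% of all genes passed, 0 at day 80, where 0% passed, and 0 at day 150, where 0.121% of all genes passed (22 genes, all higher in TgCRND8). At an unadjusted p under 0.05 the counts were also 0 of 50 at each age, against 3.25%, 3.77% and 4.38% of all genes. In no gene did the 4 TgCRND8 and the 4 control values at an age fail to overlap. Over all genes the groups of an age did not overlap in 2.36%, 1.25% and 3% at the 3 ages, either direction counted.

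The mean signal over the 50 genes placed the 6 groups close together. It was 9.69 ± 0.087 (SD, n = 4) in TgCRND8 and 9.66 ± 0.13 in control mice at day 70. At day 80 it was 9.64 ± 0.14 and 9.67 ± 0.11, and at day 150 it was 9.68 ± 0.11 and 9.64 ± 0.043. The single arrays ran from 9.47 to 9.84, and those of TgCRND8 and control mice overlapped at every age.

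**Figure D1:**
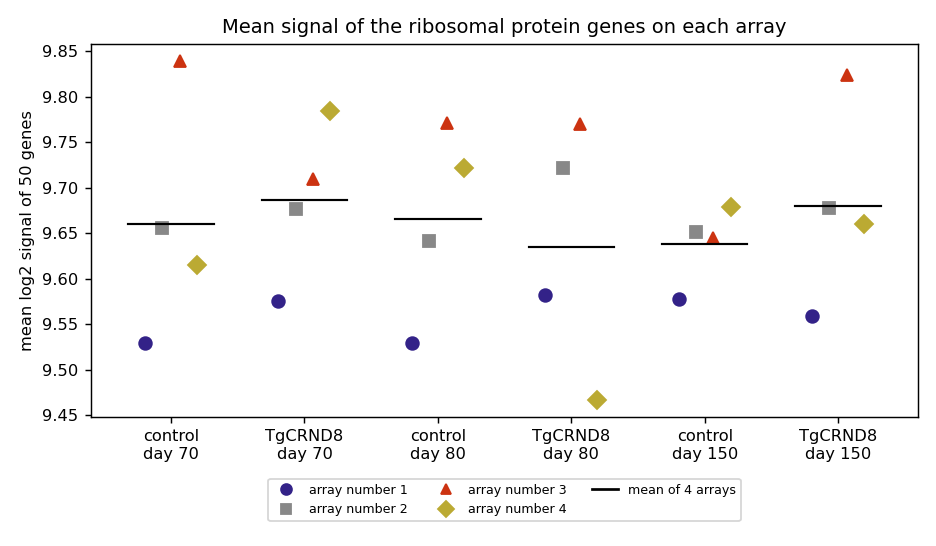
Mean log2 signal of the 50 ribosomal protein genes (vertical axis) on each of 24 arrays in 6 groups (horizontal axis), with symbols for the number of the array in its group and a line at the mean of 4 arrays. The group means lie between 9.64 and 9.69, while single arrays span 9.47 to 9.84, and the arrays numbered 1 lie at 9.53 to 9.58 in every group.

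Small differences ran mostly one way at each age, but not the same way. At day 70, 34 of 50 genes were higher in TgCRND8 (48.7% of all genes), with a median difference of 0.051 log2 and a range of -0.28 to 0.17. At day 80 only 14 were higher (50.9% of all genes), with a median of -0.038 and a range of -0.28 to 0.27. At day 150, 39 were higher (50.1% of all genes), with a median of 0.037 and a range of -0.12 to 0.27. Among the 34 genes with signals above 10 the medians were 0.071, -0.045 and 0.037. The median over all genes was -0.0031, 0.0022 and 0.00044 at the 3 ages. All 3 medians of the ribosomal protein genes were smaller than the SD of their array mean within groups, 0.11. They were also smaller than the 0.074 that is left once the array number is taken out as well. Both SDs describe single arrays, and a difference between group means varies less, so this does not weigh the medians against their own error. The median at day 80 became 0.017 without TgCRND8 array number 4 and 0.0034 without control array number 3, and the median at day 150 became -0.019 without TgCRND8 array number 3. With the RNA quality of the arrays as a covariate the median at day 80 was 0.019, with 20 genes lower. The split at day 80 also moved with the scaling, to 20 higher under quantile normalization and 7 under median centring. Without the single arrays highest for pituitary or cerebellar genes, the median was 0.094 at day 70 and -0.064 at day 80. At day 150 it was 0.039 (without TgCRND8 number 4) or 0.045 (without control number 4). The next highest mean of the pituitary genes, 0.64 log2 above their mean over all arrays, was on TgCRND8 number 4 of day 70. Without that array the median at day 70 was 0.0092.

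For the mean of the 3 ages, 0 of 50 genes passed and 0.0385% of all genes did. At an unadjusted p under 0.05 there were also 0 of 50, against 3.16% of all genes. The median difference was 0.013, and 35 genes were higher (49% of all genes). This median was 0.041 with RNA quality as a covariate and ranged from -0.0019 to 0.045 with 1 array left out, the ends being control number 1 and TgCRND8 number 4 of day 80. Without control number 3 of day 70 it was 0.042. The 95% confidence interval of this mean difference lay within 0.3 log2 of 0 for 49 of 50 genes, and for 34 of the 34 bright ones. The gene outside the limit was Rps4l, with an upper bound of 0.32. At the single ages the intervals were wider, with a median half-width of 0.20, and 27, 37 and 34 of 50 lay within that limit. A smaller difference than these intervals cover was not detectable with 4 arrays a group. In 6 genes TgCRND8 was higher at all 3 ages and in 4 it was lower at all 3. Another 22 genes were higher at day 70, lower at day 80 and higher at day 150. The shares of all genes with these patterns were not counted, so the counts cannot be read as particular to the ribosomal protein genes.

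**Figure D2:**
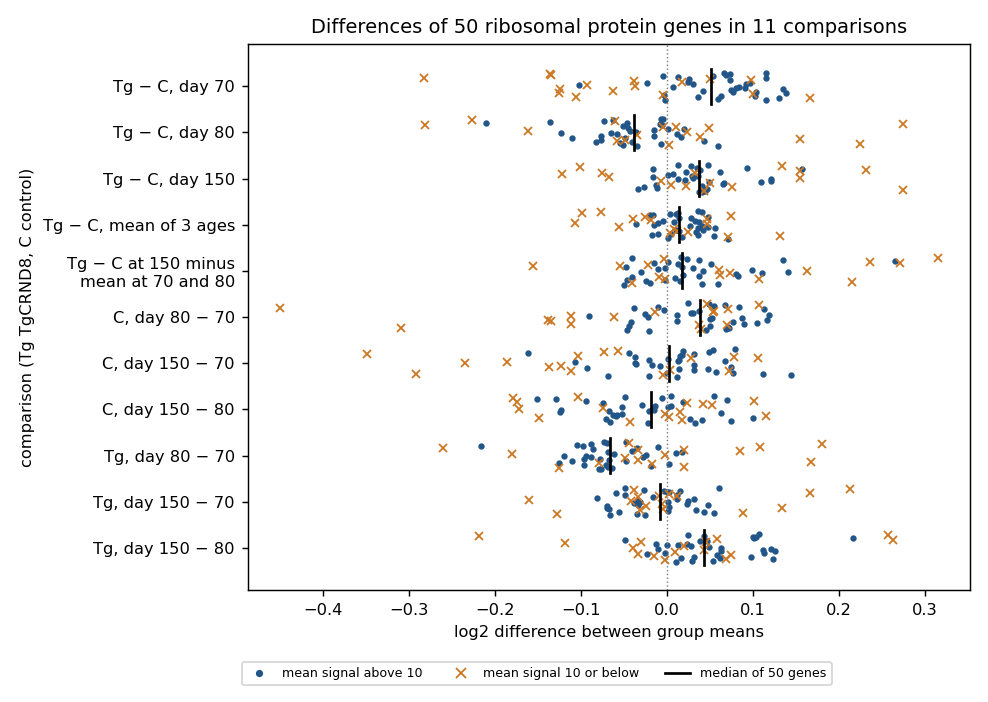
Log2 difference between group means (horizontal axis) of the 50 ribosomal protein genes in 11 comparisons (vertical axis), where a positive value is higher in the first group named. Dots are genes with a mean signal above 10, crosses the dimmer ones and the vertical line the median of 50 genes. The medians lie between -0.066 and 0.051, and the widest single differences belong to crosses such as Rpl27a at -0.45.

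In the small subunit the lowest p at day 70 was that of Rps6, whose phosphorylation is a standard readout of mTOR activity. Its signals were 5.59, 5.56, 5.71 and 5.81 in TgCRND8 and 5.53, 5.31, 5.56 and 5.60 in control mice. The groups overlapped, and the difference was 0.17 ± 0.088 (SE; adjusted p = 0.99968). On the brighter probe set that Rps6 shares with other symbols the difference was -0.014. Rps4x, the X-linked copy of the S4 protein, followed with 0.13 ± 0.077 (11.23 against 11.10). Rpsa, which also serves as a laminin receptor at the cell surface, differed by 0.070 ± 0.051 over the 3 ages (11.56 against 11.49).

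At day 80 the small subunit protein Rps25, needed for some internal ribosome entry sites, had 5.22, 5.33, 5.22 and 5.04 in TgCRND8 and 4.92, 4.97, 5.27 and 5.03 in control mice. The difference was 0.15 ± 0.090 (adjusted p = 0.9996), and it was -0.15 on the brighter shared probe set. At day 150 Rps10, a protein of the small subunit's head, had 11.67, 11.72, 11.89 and 11.67 in TgCRND8 and 11.54, 11.55, 11.71 and 11.66 in control mice, a difference of 0.12 ± 0.083 (adjusted p = 0.9995).

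Among large subunit proteins Rpl27a had the most negative difference at day 70 and the most positive at day 80, on a probe set of mean signal 6.29. At day 70 its signals were 5.74, 6.48, 6.39 and 6.33 in TgCRND8 and 6.29, 6.16, 6.74 and 6.88 in control mice, a difference of -0.28 ± 0.16. At day 80 they were 6.21, 6.46, 6.57 and 6.14 against 6.09, 5.998, 5.96 and 6.23, a difference of 0.27 ± 0.16. The groups overlapped at both ages. Its brighter shared probe set, at 11.56, gave 0.075 and -0.017 at these ages, the opposite sign each time. Rpl12, a protein at the base of the stalk, had 4.58 against 4.80 at day 80, a difference of -0.23 ± 0.12, and -0.082 on its brighter shared probe set. Rpl37 had the most negative lower bound of that age, with a difference of -0.28 and an interval from -0.65 to 0.091. Its brightest shared probe set, at 12.39, gave -0.061.

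A stalk protein gave the lowest p at day 150. Rplp0, the stalk's anchor and a common reference gene in quantitative PCR, had 9.49, 9.63, 9.81 and 9.61 in TgCRND8 and 9.48, 9.48, 9.44 and 9.52 in control mice. The 4 control values lay within a narrow band, and only TgCRND8 array number 1 fell inside it. The difference was 0.16 ± 0.089 (unadjusted p = 0.0941, adjusted p = 0.9995). Rplp2, its partner in the stalk, had 11.59, 11.70, 11.76 and 11.66 in TgCRND8 and 11.63, 11.67, 11.69 and 11.66 in control mice.

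The paralogs showed no called difference either. Rps4l, a paralog of Rps4x, had 6.71, 7.04, 6.47 and 6.94 in TgCRND8 and 6.74, 6.17, 6.42 and 6.73 in control mice at day 150, a difference of 0.27 ± 0.16 (adjusted p = 0.9995). Rpl7l1, a nucleolar relative of Rpl7, was lower by 0.11 over the 3 ages, with means of 6.33 and 6.44 and an interval from -0.25 to 0.030. Rpl7 itself averaged 10.96 over the arrays. Rps27l, a p53-responsive relative of Rps27, and Rpl22l1, a relative of Rpl22, appear below, since they varied most between mice of a group. Rps19bp1, the binding protein, differed at no age by an interval excluding 0.

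Whether the genotype difference at day 150 departed from its mean at days 70 and 80 was tested directly. Of the 50 genes 0 passed, against 0.011% of all genes. At an unadjusted p under 0.05 there was 1 of 50, against 5.75% of all genes. This was Rpl12, with a departure of 0.31 ± 0.15 (unadjusted p = 0.0426, adjusted p = 0.865). On its shared probe set the departure was 0.053. The median departure was 0.018, with 31 genes above 0 (50.5% of all genes), and this split moved with the scaling to 25 under quantile normalization and 45 under median centring.

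In control mice age was compared over the same 3 points, and these comparisons share groups with each other and with the genotype comparisons. From day 70 to day 80, 0 of 50 genes passed, against 0% of all genes, and 32 were higher at day 80 (48% of all genes). Rpl27a was the only gene with an unadjusted p under 0.05, against 3.24% of all genes. Its means were 6.07 at day 80 and 6.52 at day 70, a difference of -0.45 ± 0.16 (unadjusted p = 0.0076, adjusted p = 0.9999). On the shared probe set the difference was 0.049. The 4 values of Rps19bp1 were 6.86, 6.95, 6.81 and 6.97 at day 80 and 7.06, 6.98, 7.01 and 7.08 at day 70. It was the only gene of the 50 whose groups did not overlap, against 0.934% of all genes not overlapping in that direction.

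From day 70 to day 150 in control mice 0 of 50 genes passed, against 0.022% of all genes, and 26 were higher at day 150 (48.8% of all genes). Under median centring 13 were higher. At an unadjusted p under 0.05 there were 2 of 50, Rplp0 and Rpl27a, both lower at day 150, against 7.99% of all genes. Rplp0 had 9.55, 9.64, 9.92 and 9.74 at day 70 and 9.48, 9.48, 9.44 and 9.52 at day 150. All 4 values of day 150 lay below all 4 of day 70, and the difference was -0.23 ± 0.089 (unadjusted p = 0.0144, adjusted p = 0.540). That adjusted p was the smallest of the 550 made for these genes. Rps19bp1 also did not overlap, at 6.90 against 7.03. Such separation downward was seen in 2 of 50 genes and in 2.53% of all genes.

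Rpl27a differed by -0.35 ± 0.16 over that interval of age (adjusted p = 0.605), and by 0.065 on its shared probe set. Rps4x was 0.14 ± 0.077 higher at day 150 (11.24 against 11.10). From day 80 to day 150 in control mice 0 of 50 passed, against 0% of all genes, and 0 of 50 had an unadjusted p under 0.05, against 3.41%. Of the genes 20 were higher at day 150 (49.6% of all genes), and 13 were under median centring. The lowest p was again that of Rplp0, at -0.17 ± 0.089 (unadjusted p = 0.0645, adjusted p = 0.9996).

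In TgCRND8 mice the values at day 80 were mostly the lower ones. Between day 70 and day 80, 0 of 50 genes passed, against 0% of all genes, and 0 of 50 had an unadjusted p under 0.05, against 5.72%. Only 9 genes were higher at day 80 (50.5% of all genes), with a median difference of -0.066 and a range of -0.26 to 0.18. Without TgCRND8 array number 4 of day 80 this median was at its smallest over the arrays left out, -0.0081. The lowest p belonged to Rps25 (0.17 ± 0.090, but -0.18 on its shared probe set), Rpl7l1 (-0.18 ± 0.12) and Rpl27 (-0.098 ± 0.065). Between day 70 and day 150, 0 of 50 passed, against 0.0879% of all genes, and 0 of 50 had an unadjusted p under 0.05, against 2.64%. The median difference was -0.0079 and 22 genes were higher (48.8% of all genes). The lowest p belonged to Rpl12 (0.21 ± 0.12), Rps25 (0.13 ± 0.090) and Rps6 (-0.13 ± 0.088), and on shared probe sets Rpl12 gave -0.099 and Rps6 0.024.

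Between day 80 and day 150 in TgCRND8 mice 0 of 50 passed, against 0.022% of all genes, and 38 were higher at day 150 (47.9% of all genes). At an unadjusted p under 0.05 there was 1 of 50, against 6.76% of all genes. This was Rpl12, which had 4.66, 4.68, 5.03 and 4.97 at day 150 and 4.83, 4.61, 4.49 and 4.38 at day 80, a difference of 0.26 ± 0.12 (adjusted p = 0.720). On its shared probe set the difference was 0.0052. Rps19 followed with 0.13 ± 0.074 (10.996 against 10.87) and Rpl14 with -0.22 ± 0.13 (4.25 against 4.46). The median difference of 0.043 became -0.017 without TgCRND8 array number 4 of day 80 and -0.0084 without TgCRND8 array number 3 of day 150.

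For the mean of the 50 genes the mean square between groups was 0.16 times that within groups. Gene by gene the median of this ratio was 0.56, against 0.85 over all genes. The ratio was below 1 in 34 of 50, against 58.4% of all genes. Each array number occurs once in every group, so differences between numbers add to the spread within groups and not to that between groups. Taking the number out lowered the SD of the mean within groups from 0.11 to 0.074, and these ratios leave it in. The mean of the 50 genes was lowest on array number 1 in 5 of 6 groups and highest on array number 3 in 4 of 6. The arrays numbered 1 lay at 9.53 to 9.58 and those numbered 3 at 9.65 to 9.84. Of the variation of this mean over 24 arrays, 57.0% of the sum of squares lay between the 4 array numbers, 4.18% between the 6 groups and 38.8% in the rest. Number 1 lay below its own group mean in all 6 groups and number 3 above it in all 6.

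Individual genes followed the same pattern. On the arrays numbered 1, 30 of 50 genes lay below their own group mean in all 6 groups. On those numbered 3, 23 lay above it in all 6. The shares over all genes were not counted, so these counts cannot be read as particular to the ribosomal protein genes. The labels do not say what a number stands for in the laboratory. The 18S ribosomal RNA control of the array read 6.35 to 6.80 on the arrays numbered 1 and 6.53 to 7.16 on those numbered 3. The difference between 3′ and 5′ probe sets of the Gapdh and actin controls, a measure of RNA integrity and labelling, was 0.35 to 0.41 and 0.34 to 0.40. The part of either in the result was not tested.

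**Figure D3:**
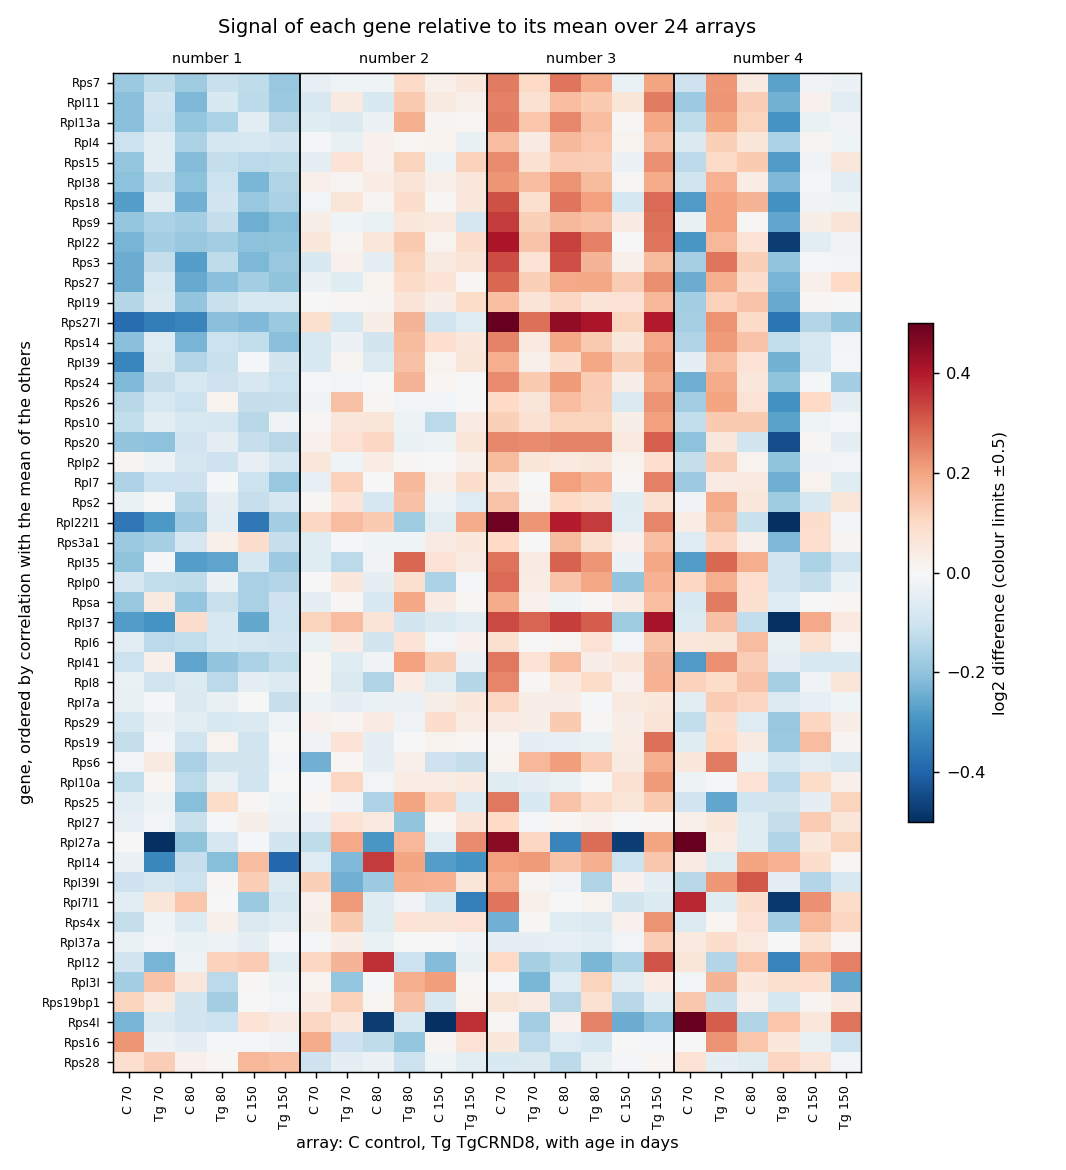
Log2 signal of each of the 50 genes (rows, ordered by their correlation with the mean of the others) minus its mean over 24 arrays (columns, ordered by array number and then by group). Colours run from blue at -0.5 to red at 0.5, and stronger differences take the end colours. The columns numbered 1 are mostly blue and those numbered 3 mostly red in the upper rows, while the last row, Rps28, runs the other way.

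The lowest and the highest array were TgCRND8 number 4 of day 80 (9.47) and control number 3 of day 70 (9.84). Between them 44 of 50 genes were higher on the latter, 5 were lower and 1, Rps16, was equal, with a median difference of 0.37. The 5 lower ones were Rps28 (-0.18), Rps4l (-0.13), Rpl3l (-0.091), Rps4x (-0.068) and Rpl37a (-0.050).

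How closely each gene followed the others was described by its Pearson correlation with the mean of the other 49 over 24 arrays. Arrays share labelling and scaling, so these values describe the arrays and carry no test. The median correlation was 0.79, and 24 of 50 genes (48%) were above 0.8, against 2.7% of the 18143 other genes. Without the lowest and the highest array the median was 0.76, and on deviations from group means it was 0.83. Rps7 was closest at 0.97, followed by Rpl11 at 0.95, which restrains Mdm2 when ribosome assembly is disturbed. Rpl13a, Rpl4 and Rps15 each had 0.95 as well. The small subunit had a median of 0.84, the large subunit 0.76, the 6 paralogs 0.29, genes with signals above 10 0.83 and the dimmer ones 0.34.

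Rps7 had 11.75, 11.89, 12.19 and 11.83 in control mice of day 70, 11.76, 11.91, 12.20 and 11.98 in those of day 80 and 11.81, 11.96, 11.90 and 11.92 in those of day 150, in the order of array number. In TgCRND8 mice it had 11.81, 11.91, 12.03 and 12.15 at day 70, 11.82, 12.03, 12.13 and 11.67 at day 80 and 11.74, 11.99, 12.13 and 11.91 at day 150. Number 1 was the lowest array in 5 of these groups.

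Rps28, a protein at the messenger exit of the small subunit, ran against the rest with a correlation of -0.70. Its signals were 12.09, 11.91, 11.93 and 12.08 in control mice of day 70, 12.03, 11.98, 11.88 and 11.95 in those of day 80 and 12.18, 11.99, 11.9997 and 12.08 in those of day 150. In TgCRND8 mice they were 12.13, 11.97, 11.94 and 11.97 at day 70, 12.02, 11.90, 11.97 and 12.12 at day 80 and 12.16, 11.96, 12.02 and 11.998 at day 150. Number 1 was its highest array in 5 of 6 groups. The other probe sets of Rps28 had correlations of -0.53 and -0.22, so the sign was the same on all 3. It was the only gene of the 50 above its own group mean on all 6 arrays numbered 1.

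Spread within groups differed widely among the genes. Rpl37a, a zinc-binding protein of the large subunit, had the smallest pooled SD within groups, 0.049, and a range of 0.17 over 24 arrays. Rps27l had the largest, 0.31. Its signals in control mice were 7.16, 7.62, 8.10 and 7.37 at day 70, 7.21, 7.57, 7.98 and 7.64 at day 80 and 7.32, 7.44, 7.65 and 7.40 at day 150. In TgCRND8 mice they were 7.19, 7.46, 7.82 and 7.77, then 7.33, 7.71, 7.95 and 7.17, and then 7.36, 7.47, 7.94 and 7.34 at the 3 ages. Array number 1 or 4 was the lowest and number 3 the highest in all 6 groups, and the correlation with the other genes was 0.91.

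Rpl22l1 came next with an SD of 0.29 and a range of 1.22, from 10.02 on TgCRND8 array number 4 of day 80 to 11.23 on control array number 3 of day 70. Its parent Rpl22, an RNA-binding protein that represses the paralog's messenger in other tissues, had an SD of 0.23 and a correlation of 0.94, above the paralog's 0.83. Rpl37 had an SD of 0.29, Rps4l 0.26 and Rpl27a 0.25. Rps4l had a correlation of -0.0061 with the others, so its spread did not run along the shared pattern. The median gene of the 50 lay at percentile 52.7 of all genes by within-group SD.

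**Figure D4:**
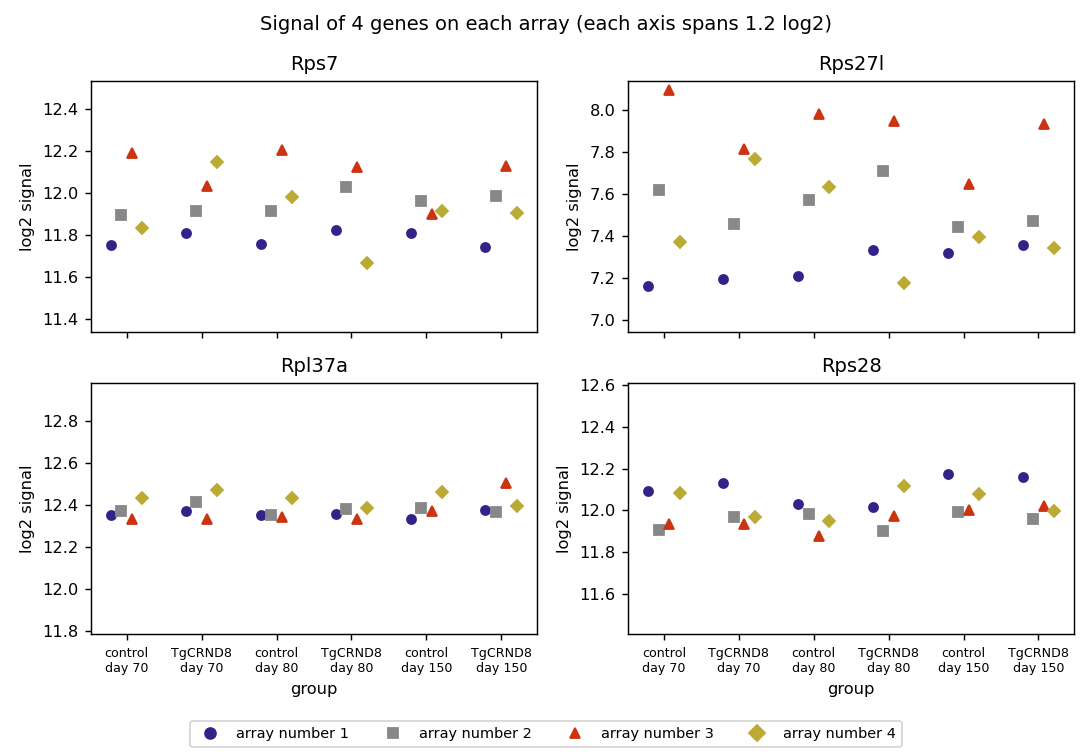
Log2 signal (vertical axes, each 1.2 wide) of Rps7, Rps27l, Rpl37a and Rps28 on the 24 arrays in 6 groups (horizontal axes), with symbols for the array number. Arrays numbered 3 are high for Rps7 and Rps27l, Rpl37a is nearly level with an SD of 0.049, and arrays numbered 1 are high for Rps28.

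All probe sets naming a ribosomal protein gene, shared with other symbols or not, were described in the same way. Of the 216 probe sets naming a ribosomal protein gene 130 had a mean above 10. Of these 86 had a correlation above 0.8 with the mean of the 50 genes and 4 had one below 0. Their median genotype differences at the 3 ages were 0.069, -0.048 and 0.042, and the largest in size were 0.18, 0.21 and 0.17. These figures include the bright probe sets of the 50 genes themselves. Shared probe sets made up 73 of the 130. They had a median correlation of 0.85, and 48 of them were above 0.8. Genes with a pyrimidine run within 5 bases of the annotated start, 20 in number, had a median correlation of 0.86, and the 24 without one had 0.68. The 6 with no promoter entry had 0.78. Genes without a run include Rps16 (-0.098), Rps19bp1 (0.067) and the paralogs Rpl3l (0.087), Rpl7l1 (0.27) and Rpl39l (0.31). Genes with a run include the paralogs Rpl22l1 (0.83) and Rps27l (0.91) and the dim Rpl12 (0.18) and Rpl14 (0.33). The part of this make-up in the contrast was not tested.

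Other parts of the translation machinery were measured as lists. None of their genes passed in any of the 11 comparisons by limma. Fau, whose product is cleaved to the ribosomal protein S30, was the only 1 of 4 ribosomal proteins outside the symbol rule that was measured, with a correlation of 0.86 and a difference of 0.076 at day 150. The 20 elongation factors and other translation genes had a median correlation of 0.72. In TgCRND8, 14 of the 20 were higher at day 70, 9 at day 80 and 16 at day 150, where 48.7%, 50.9% and 50.1% of all genes were higher. The 34 ribosome assembly genes had a median correlation of -0.036, with 16, 14 and 22 higher at the 3 ages. The 18 genes of mTOR and Myc control had a median of -0.19, with 7, 8 and 8 higher. The 76 mitochondrial ribosomal proteins had 33, 24 and 58 higher, with median differences of -0.014, -0.035 and 0.048.

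At an unadjusted p under 0.05 these 4 lists held genes at 2 ages. At day 80 there were 3 of the 34 assembly genes, against 3.77% of all genes: Eif6 at 0.18 and Nob1 at 0.14, both of which act in late ribosome maturation, and Tsr1, a factor of small subunit maturation, at -0.30 (adjusted p = 0.99958 for each). At day 150 there were 2 of the 76 mitochondrial ribosomal proteins, against 4.38% of all genes: Mrps12 at 0.20 and Mrps6 at 0.19 (adjusted p = 0.9995 for each). The translation list and the mTOR and Myc list had 0 at each age.

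Genes of other complexes correlated with the ribosomal protein genes over the arrays as well. The 86 subunits of oxidative phosphorylation had a median correlation of 0.72 with them, 37 of them above 0.8, the 76 mitochondrial ribosomal proteins 0.61 and the 40 proteasome subunits 0.44. The 5 other genes most like the ribosomal protein genes were Chchd1 (0.96), a mitochondrial ribosome component, the ATP synthase subunits Atp5j2 (0.96) and Atp5l (0.95), Cops2 (0.96) of the COP9 signalosome and Ndufa6 (0.95) of respiratory complex I. Cell type markers lay on both sides of 0. Endothelial markers had a median of -0.64 over 4 genes, choroid plexus markers -0.62 over 5 and neuron markers -0.49 over 10. Oligodendrocyte markers had -0.13 over 7 and astrocyte markers -0.11 over 8, while meningeal markers had 0.25 over 4 and microglia markers 0.27 over 13. The strongest negative correlations, looked up after their values were seen, were -0.93 for the calcium pump Atp2a2 and -0.93 for the peptidase Cpd. Gene span also differed along this scale: its median was 3.61 kb for the ribosomal protein genes, 12.97 kb for the other genes in the highest 5% of correlation and 50.1 kb for those in the lowest 5%. Over all other genes it was 20.4 kb. The median signal was 8.05 in the highest 5% and 7.84 in the lowest 5%, against 5.37 over all other genes.

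**Figure D5:**
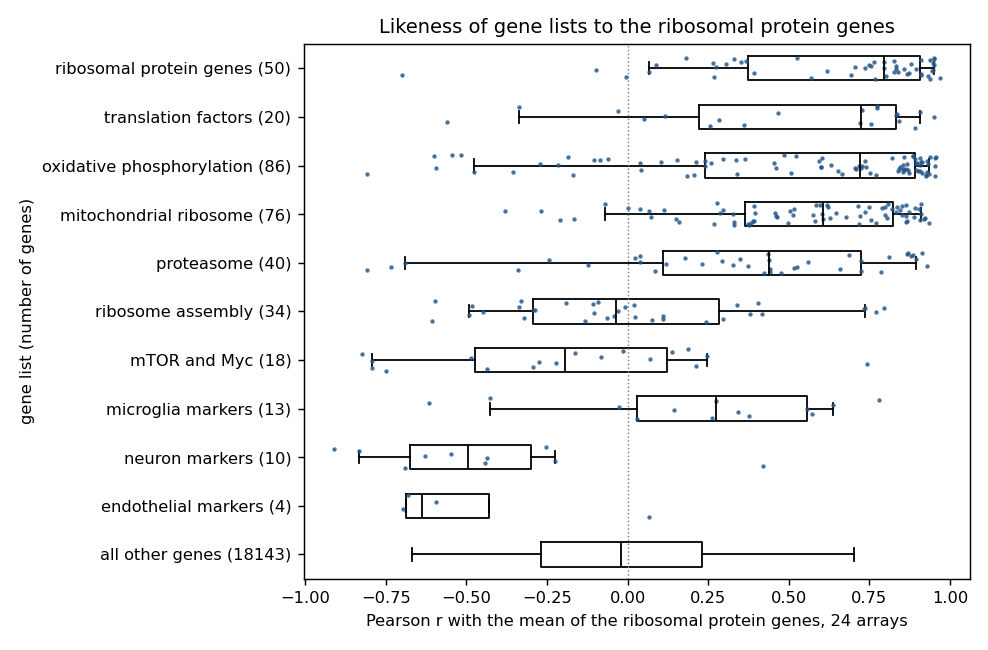
Pearson correlation over 24 arrays with the mean of the ribosomal protein genes (horizontal axis) for gene lists (vertical axis, number of genes in brackets). Dots are genes, boxes the quartiles with the median, and whiskers the 5th and 95th percentiles. The ribosomal protein genes have a median of 0.79, oxidative phosphorylation 0.72, neuron markers -0.49 and all other genes -0.020.

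A first principal component of the within-group variation of all other genes held 25.2% of that variance, and its correlation with the mean of the ribosomal protein genes was 0.91 in size. Cell type markers were set beside the genotype comparison. At day 150 the mean of 13 microglia markers was 6.86 to 7.02 in TgCRND8 and 6.37 to 6.49 in control mice, with 13 of 13 higher in TgCRND8 and 6 passing. The mean of 8 astrocyte markers was 9.34 to 9.48 and 9.06 to 9.23. Of these 8 only 3 were higher in TgCRND8 and their median difference was -0.0022. The separation of that mean goes with Gfap (1.42) and Vim (0.74), intermediate filament genes that rise in reactive astrocytes and were the 2 that passed. The mean of the ribosomal protein genes overlapped between these groups, at 9.56 to 9.82 and 9.58 to 9.68. The 10 neuron markers overlapped as well, at 9.86 to 10.07 and 9.85 to 10.0001.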

How the data were processed

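Forebrain RNA of 24 mice in 6 groups of 4 was measured, 1 array per mouse, and mice were grouped by the labels' genotype and age. RNA was primed with oligo(dT) and labelled by in vitro transcription, per the labels' protocols. The deposited values are log2 signals per probe set, as the values show. How the authors normalized them was not given in the sources used here. Array medians, 4.28 to 4.38, are near equal, and whether values were scaled, centred or quantile-normalized stays unknown. All 24 columns were used. Array precision is limited by the number of arrays, since scanner files were not analysed here.

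Of 45037 probe sets other than 64 array controls, 34945 have 1 symbol in the platform annotation, 932 several and 9160 none. The brightest single-symbol probe set of each of 18193 genes was kept. A model of 6 group means was fitted with limma 3.58.1 (R 4.3.3), and p-values were adjusted over all genes by Benjamini-Hochberg at 0.05. Intervals are 95%. The procedure was tested on simulated data. Python 3.11.15 made the sequence counts. Nothing says how the mice relate across groups beyond being littermates, and the p-values take the mice as independent. They weigh a difference between group means against the spread within groups, which includes differences between array numbers.

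The members and gene lists were chosen with earlier results of these data known. Genes named with values are those passing in any comparison, the 3 with the smallest p in each, and the 5 brightest and 5 dimmest. The 5 with the largest spread within groups, the stalk genes and Rpsa, the paralogs and Rps19bp1 were also named, with others named for their correlation. A gene with a small p is not always given with its value in that same comparison. Replicate numbers were checked by correlating deviations from group means. At day 150 the 4 same-numbered pairs of TgCRND8 and control mice correlated at 0.14 to 0.26, all above 0.1, which met the rule set for pairing. In the other 8 comparisons of 2 groups the same-numbered pairs did not all exceed 0.1. Over all pairs of mice from different groups the median correlation was 0.14 for the same number and -0.044 for different numbers. The labels do not say what a number stands for, so whether the mice were paired is unknown. The alternatives were quantile normalization, median centring, other choices of probe set, omission of the dimmest 40% of genes, other empirical Bayes settings, the replicate block, Xist level or RNA quality as covariate, the arrays compared alone, an adjusted p under 0.10 and each array left out in turn.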

Additional observations from a re-analysis of the deposited data

Results flagged for a closer look

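In groups of 4 arrays, the highest or lowest value was called apart where its gap to the nearest other divided by the group's range was above Dixon's 95% critical value. This was looked for in 31 named genes and in the mean of the 50 genes, 192 groups in all, and found in 9 (4.69%). Chance alone gives about 1 in 20, so the number of these values is near what chance gives. Array number 1 was apart in 4 of them. Rpl14 read 4.17 on TgCRND8 array number 1 of day 80, where the others lay at 4.55 to 4.58. Rpl22l1 read 10.46 on TgCRND8 array number 1 of day 70, below 10.90 to 10.97 on the others. Rps28 read 12.13 on that same array, above its others at 11.94 to 11.97. Rpl7 read 10.85 on control array number 1 of day 150, against 10.97 to 10.99.

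Array number 4 was apart in another 4. Rpl37a read 12.43 on control array number 4 of day 80, against 12.35 at the highest of the others, and Rps4x read 11.27 on that array, against 11.13 to 11.14. Rpl7l1 read 5.90 on TgCRND8 array number 4 of day 80, against 6.37 to 6.40, and this array had the lowest mean of the 50 genes. Rpsa read 11.79 on TgCRND8 array number 4 of day 70, against 11.53 to 11.57. Rps19, whose mutations cause Diamond-Blackfan anaemia in people, read 11.20 on TgCRND8 array number 3 of day 150, against 10.92 to 10.93.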

How the results depend on the processing

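The count of ribosomal protein genes passing was 0 in all 11 comparisons and was 0 by limma under each of 12 alternative settings that applied and with each of 24 arrays left out. The limma fit with the replicate number as a block also gave 0 in each, so the block changed no call. Each number occurs once in every group, so by design the block leaves every difference as it was and bears only on the p-values. The smallest adjusted p of this fit for these genes was 0.355. The counts at an unadjusted p under 0.05 were 0 to 2 per comparison. Over all genes the numbers met the rule for pairing only at day 150, but the mean of the 50 genes was below its group mean on number 1 and above it on number 3 in all 6 groups. Leaving out 1 array moved the median difference between 0.0092 and 0.098 at day 70, between -0.088 and 0.017 at day 80 and between -0.019 and 0.078 at day 150. The sign turned without TgCRND8 array number 4 or control array number 3 at day 80 and without TgCRND8 array number 3 at day 150. The median over the 3 ages became -0.0019 without control array number 1 of day 80, 0.045 without TgCRND8 array number 4 of day 80 and 0.041 with RNA quality as a covariate. The departure at day 150, with a median of 0.018, became -0.029 without TgCRND8 array number 3, -0.0065 without control array number 1 of that age and -7.3e-05 without TgCRND8 array number 4 of day 80. In control mice the median from day 70 to day 80 became -0.0030 without number 1 of day 70 and -0.0094 without number 3 of day 80, which also turned the median from day 80 to day 150 to 0.013. In either genotype the median from day 70 to day 150 was near 0 and changed sign with several arrays left out, within -0.040 to 0.072 in control and -0.066 to 0.025 in TgCRND8 mice. RNA quality as a covariate turned the median at day 80 to 0.019, and that of control mice from day 70 to day 80 from 0.038 to -0.011. Under quantile normalization 20 of 50 genes were higher in TgCRND8 at day 80, and 7 under median centring. Between day 80 and day 150 in TgCRND8 mice 32 and 44 were higher. Depth is not at issue on arrays, but low signal is: 3 of the 50 genes lie below the arrays' lower quartiles.

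The 3 genes with the smallest p in each comparison, 33 results in all, were followed under the alternatives. Of 716 such values 705 kept their sign and their side of the threshold. Several alternatives cannot change a sign: the block, other empirical Bayes settings, omission of dim genes and the arrays compared alone leave each difference as it was. The genes were picked from these same data and none passed, so this count is no measure of robustness. The other 11 changed sign where each gene took its brightest probe set, shared ones included (80 genes), an alternative chosen after seeing the data. At day 70 Rps6 became -0.014 and Rpl27a 0.075. At day 80 Rpl27a became -0.017 and Rps25 -0.15, and Rps6 became -0.0028 over the 3 ages. In control mice Rpl27a became 0.049 from day 70 to day 80 and 0.065 from day 70 to day 150. In TgCRND8 mice Rps25 became -0.18 from day 70 to day 80, Rpl12 -0.099 and Rps6 0.024 from day 70 to day 150, and Rpl14 0.046 from day 80 to day 150. These values come from another probe set of the gene, which also binds transcripts of other symbols.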
